A study of Mus musculus with 6 samples.

Results

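Astrocyte membrane and secreted genes were followed in neural stem cells of old and young mice. The 9 genes are Gja1, Gjb6, Aqp4, Ntsr2, Mlc1 and Atp1b2, whose products sit in the membrane, and Apoe, Clu and Cst3, whose products are secreted. They were taken by name: every probe set whose platform annotation gives 1 of these symbols and no other was used, 20 probe sets of the 45101 on the array, for 9 of its 18193 named genes. Messenger RNA was measured on 6 Affymetrix arrays, 3 of OldNSC samples from mice of 9 months and 3 of YoungNSC samples from mice of 6 weeks. All samples are labelled as neural stem cells of the C57BL/6JRj strain, with no transgene or treatment named. The labels give no isolation or culture method and do not say that replicates are separate animals, so a p-value here reflects spread among samples that may be technical in origin.

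Astrocytes are the glial cells that wrap synapses and blood vessels, couple to each other through gap junctions, clear potassium and water, and supply lipoproteins to neurons. The stem cells of the adult brain are themselves astrocyte-like glia, and many genes used to mark astrocytes are also active in them. A level on these arrays therefore does not by itself tell an astrocyte from a stem cell, and in samples of many cells a change in the number of cells that use a gene cannot be told apart from a change in RNA per cell.

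Levels below are log2 values as deposited, on which 1 unit is a doubling, and the values share a lowest level of 2.14. A probe set was tested if at least 3 of the 6 arrays read above log2 4 for it, which held for 16 of the 20, and 8 of the 9 genes had such a probe set. Old and young arrays were compared with limma over all 19858 probe sets past this filter, with Benjamini-Hochberg adjustment over all of them and a threshold of 0.05. A change is old minus young. A probe set under log2 4 on every array of 1 age could pass the filter only through the other age. The filter thus fixed the direction of its change. Of the listed genes named below, Gjd2, Cav1, Fxyd6, Ctsz, Ctsc, Hes5, Nkx2-2 and Ugt8a passed through the young arrays alone. Sntb2, Lpl and Foxj1 passed through the old arrays alone.

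Of the 6 genes of membrane proteins, 3 had more messenger RNA in old cells and 1 had less, and none of the 3 genes of secreted proteins passed the test. Gja1, the main astrocyte connexin, rose 2.57-fold in old cells by its brightest probe set. Aqp4, the water channel of astrocyte endfeet, rose 6.53-fold, and Mlc1, a membrane protein of astrocyte junctions, rose 1.37-fold. Ntsr2, the low-affinity receptor for the peptide neurotensin, fell 10.2-fold. Atp1b2, Apoe, Clu and Cst3 did not pass, and Gjb6 lay at the lowest value on every array and was not tested. Of the 16 tested probe sets 7 rose and 1 fell, where 36.6% of all probe sets passed, 20.1% as higher and 16.5% as lower. Taking each gene by its brightest tested probe set, 3 of 8 rose and 1 fell, where 40.6% of all genes passed, 22.0% as higher and 18.5% as lower. The median log2 change of the 8 genes was 0.12, against 0.01 over all 10050 genes. The ages did not overlap for 10 of the 16 probe sets, against 55.3% of all probe sets. In 8 of these every old array was above every young one (29.4% of all) and in 2 below (25.9% of all). These counts are a description with no test of the list, and 5 of the 7 probe sets that rose, which are also 5 of the 8 above every young array, belong to Gja1. The values of each gene follow.

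**Figure D1:**
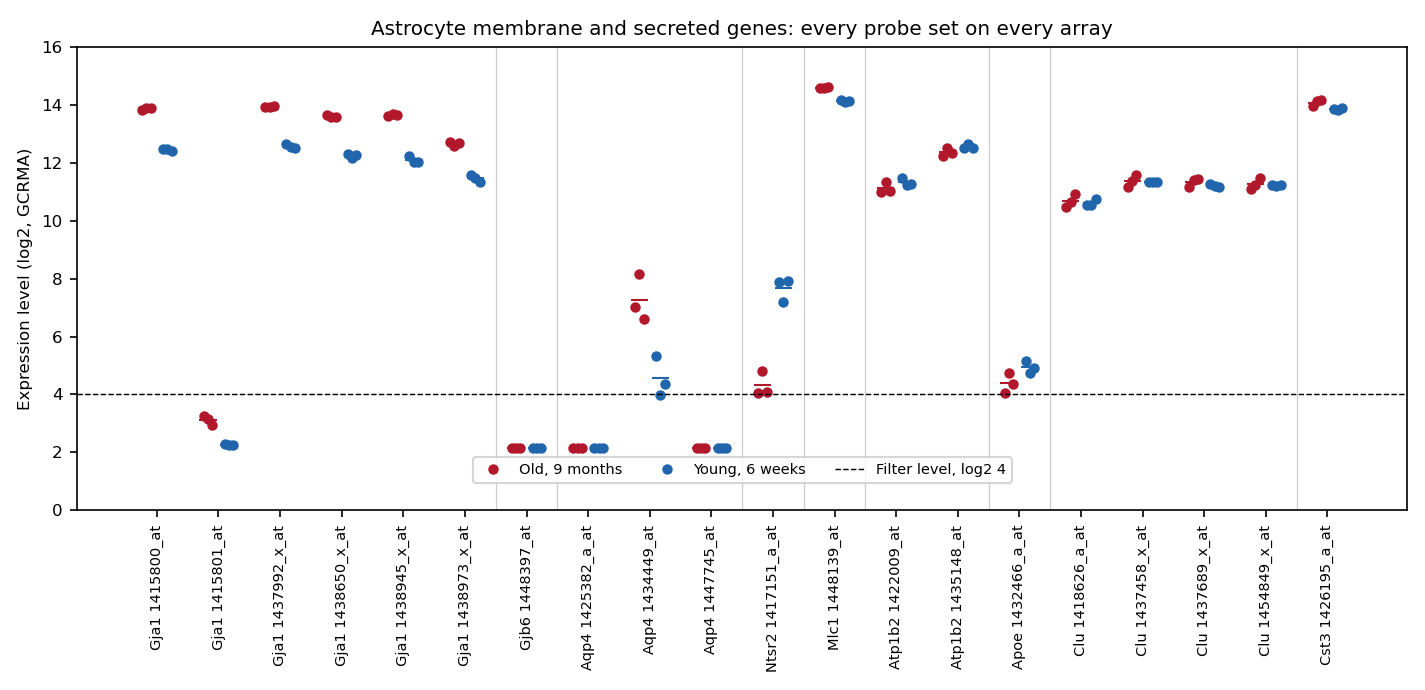
Expression level (log2, y axis) of all 20 probe sets of the 9 genes (x axis), 1 point per array, old in red to the left of young in blue, short lines at the group means and the filter level of log2 4 as a dashed line. The 5 bright Gja1 probe sets and Mlc1 lie higher on every old array, Aqp4 is higher and Ntsr2 lower, and Gjb6 and 2 Aqp4 probe sets stay at or near 2.14.

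The promoters of 3 of the changed genes are shown to let the start regions of Gja1 and Mlc1, which rose, be set beside that of Ntsr2, which fell. Each line is the 250 bases before an annotated start, 5′ to 3′ on the gene's strand, from RefSeq promoter windows of GRCm38.p6. Gja1 lies at chr10:56377050-56377299 (plus strand), Mlc1 at chr15:88978554-88978803 (minus strand) and Ntsr2 at chr12:16653220-16653469 (plus strand). Capitals mark matches to 3 motifs searched on both strands: the AP-1 site TGANTCA, the NFI half-site TTGGCA and the TATA box TATAAA.
Gja1: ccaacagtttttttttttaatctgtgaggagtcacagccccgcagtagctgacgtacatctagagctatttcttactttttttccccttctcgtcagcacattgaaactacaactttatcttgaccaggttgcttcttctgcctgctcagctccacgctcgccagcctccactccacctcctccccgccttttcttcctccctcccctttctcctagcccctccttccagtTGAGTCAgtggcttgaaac
Mlc1: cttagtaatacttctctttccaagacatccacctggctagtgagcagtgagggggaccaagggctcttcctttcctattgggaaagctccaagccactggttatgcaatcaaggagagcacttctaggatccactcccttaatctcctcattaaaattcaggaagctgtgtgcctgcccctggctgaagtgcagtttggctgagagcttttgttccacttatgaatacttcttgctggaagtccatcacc
Ntsr2: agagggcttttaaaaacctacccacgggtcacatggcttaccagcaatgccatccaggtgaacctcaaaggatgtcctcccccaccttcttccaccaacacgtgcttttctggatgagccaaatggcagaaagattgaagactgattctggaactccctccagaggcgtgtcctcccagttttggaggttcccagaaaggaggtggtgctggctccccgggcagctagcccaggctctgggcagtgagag
The Gja1 window held 1 AP-1 match, TGAGTCA, from 19 to 13 bases before the start (-19 to -13), and none of the other 2 motifs. The Mlc1 and Ntsr2 windows held none of the 3. Of all 32851 windows of this length 6.75% held the AP-1 motif, 12.3% the NFI half-site and 12.4% the TATA box. A match is a description of the letters and not a measured site. The promoter table held 6 of the 9 genes, and Aqp4, Atp1b2 and Clu are named here without one.

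Connexins form the channels through which neighbouring astrocytes and stem cells exchange ions and small molecules. Gja1 encodes Cx43. Its brightest probe set (1437992_x_at) read 13.92, 13.93 and 13.96 on the old arrays, against 12.66, 12.55 and 12.51 on the young arrays. Every old array lay above every young one. The groups averaged 13.94 ± 0.018 in old and 12.58 ± 0.078 in young cells (SD, n = 3 each), a log2 change of 1.36 with a 95% confidence interval of 1.22 to 1.50 (limma adjusted p = 9.70e-05). Probe set 1415800_at read 13.84, 13.91 and 13.88 on the old arrays, against 12.48, 12.49 and 12.40 on the young ones, a change of 1.42 (limma adjusted p = 5.32e-05). The 5 tested probe sets of Gja1 all rose, by log2 1.21 to 1.55, with adjusted p of at most 0.000333. Names ending in x_at mark probe sets with probes that can also match other transcripts, and 4 of these 5 are of that kind while 1415800_at is not. The last Gja1 probe set, 1415801_at, stayed under the filter at 2.96 to 3.24 in old and 2.25 to 2.28 in young cells.

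Gjb6 encodes Cx30, the other main connexin of mature astrocytes. Its 1 probe set read 2.14 on all 6 arrays, so no level and no change can be given for it, and this does not show that the transcript was absent.

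Of the other gap junction proteins, 22 connexins, pannexins and a scaffold listed, 16 had a probe set and 5 passed the filter. Among these 5, 3 fell and none rose, where 18.5% of all genes fell and 22.0% rose (median change -3.78, or -1.91 with genes under log2 4 taken at that level, against 0.01 over all genes). Gjc1, the connexin Cx45, read 4.33 ± 0.47 in old and 9.24 ± 0.34 in young cells, a log2 change of -4.91 (limma adjusted p = 0.000289). Gjc3, a connexin found in oligodendrocytes and their progenitors, fell by a factor of at least 9.36 against its highest old array (limma adjusted p = 0.00286). Gjd2, the connexin of electrical synapses between neurons, fell at least 3.77-fold against log2 4, since it read 2.14 on all old arrays (limma adjusted p = 0.00291). Gjd2 passed the filter through the young arrays alone, so the direction of its change was fixed by the filter. Panx1 and the junction scaffold Tjp1 did not pass, with changes of 0.25 and 0.01 (limma adjusted p = 0.117 and 0.861). The remaining 11 lay under the filter, and 10 of these, Gjb2 among them, read 2.14 on every array. The tested connexins whose direction the filter did not fix thus went both ways, with Gja1 higher and Gjc1 and Gjc3 lower in old cells.

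Aqp4 lets water cross the astrocyte membrane and is held at endfeet by the dystrophin complex. Probe set 1434449_at read 7.02, 8.16 and 6.62 on the old arrays, against 5.34, 3.98 and 4.36 on the young arrays. The groups did not overlap, but their replicates spread more than those of the other 8 genes and 1 young array lay under log2 4. The means were 7.27 ± 0.80 in old and 4.56 ± 0.70 in young cells (SD, n = 3 each), a change of 2.71 with a 95% confidence interval of 1.39 to 4.03 (limma adjusted p = 0.013). The call was lost when no filter was applied (adjusted p = 0.0659 with the same change). The other 2 probe sets of Aqp4 stayed between 2.14 and 2.16 on every array.

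Of 18 further water channels and dystrophin complex genes with a probe set, 8 passed the filter, of which 4 rose and 2 fell (median change 0.22). Over all genes 22.0% rose and 18.5% fell. Dtna, the dystrobrevin of astrocyte endfeet, rose by 0.94 (limma adjusted p = 0.000321), and all 5 of its tested probe sets rose. Sntb2, a syntrophin that links dystrophin to membrane proteins, rose at least 2.39-fold, at 4.96 to 5.78 on the old arrays against 2.14 on each young array (limma adjusted p = 0.000564). It passed the filter through the old arrays alone. Dag1, the dystroglycan that binds laminin, rose by 0.21 (limma adjusted p = 0.0173), but did not pass without any single one of the old arrays (adjusted p between 0.057 and 0.0603). Dmd, dystrophin itself, rose by 0.23 (limma adjusted p = 0.0367), and it passed without young replicate 1 but not without any of the other arrays (adjusted p between 0.0671 and 0.114). Of its 3 tested probe sets 2 passed, with changes from -0.05 to 0.29 over the 3. Utrn, the dystrophin relative utrophin, picked after its values were seen, fell by 0.43 (limma adjusted p = 0.0189), but did not pass when old replicate 1, 2 or 3 was left out (adjusted p between 0.051 and 0.0675). The syntrophin Sntb1, the second gene that fell, did not pass without any single array (adjusted p between 0.0535 and 0.104). Of its 4 tested probe sets only 1 passed, with changes from -0.26 to 0.18 over the 4. Aqp11 was the 1 other aquaporin tested and did not pass, at 0.58 (limma adjusted p = 0.106). The rest lay under the filter and were not tested, among them Aqp5, at 2.65 to 3.14 in old and 2.14 to 2.63 in young cells.

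Mlc1 encodes a membrane protein of astrocyte contacts that is mutated in a human leukodystrophy with brain swelling. Its 1 probe set (1448139_at) read 14.59, 14.58 and 14.60 on the old arrays, against 14.18, 14.10 and 14.14 on the young arrays. Every old array was above every young one, and the replicates lay closer together than for Aqp4 or Ntsr2. The means were 14.59 ± 0.013 in old and 14.14 ± 0.039 in young cells (SD, n = 3 each), a change of 0.45 with a 95% confidence interval of 0.34 to 0.56 (limma adjusted p = 0.00148). These are high levels, and Dbi, another astrocyte gene, read 14.59 on all 6 arrays by its brightest probe set. Whether the arrays compress the spread or the change of Mlc1 at this level was not tested.

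Mlc1 acts with the adhesion protein Hepacam (GlialCAM), the chloride channel Clcn2 and volume-regulated channels. Of 6 tested partners 3 rose and 1 fell, where 22.0% of all genes rose and 18.5% fell (median change 0.16). Gpr37l1, an orphan receptor of astrocytes, averaged 10.22 ± 0.16 in old and 7.04 ± 0.40 in young cells, a change of 3.18 (limma adjusted p = 0.000441). Clcn2 averaged 6.18 ± 0.26 in old and 4.27 ± 0.59 in young cells, a change of 1.90 (limma adjusted p = 0.0082). Hepacam rose by 0.30 (limma adjusted p = 0.0286), but the call was lost on leaving out old replicate 2 or 3 or any young replicate (adjusted p between 0.0562 and 0.0897), and of its 2 tested probe sets 1 passed. Cav1, the caveolin of membrane pits, passed the filter through the young arrays alone and fell at least 1.92-fold (limma adjusted p = 0.00149). The potassium channel Kcnj10, at -0.07, and the volume-regulated channel subunit Lrrc8a, at 0.02, did not pass (limma adjusted p = 0.512 and 0.788).

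Ntsr2 is the neurotensin receptor found on astrocytes, and it moved the other way. Its 1 probe set (1417151_a_at) read 4.05, 4.81 and 4.09 on the old arrays, against 7.89, 7.18 and 7.93 on the young arrays. The old values lay just above log2 4 and the groups were far apart. The means were 4.32 ± 0.42 in old and 7.67 ± 0.42 in young cells (SD, n = 3 each), a change of -3.35 with a 95% confidence interval of -4.10 to -2.61 (limma adjusted p = 0.00104). Near the lowest value the arrays compress differences, so the size of this fall is uncertain.

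The ligand gene Nts and the other receptor gene, Ntsr1, read 2.14 on every array. Sort1, the sorting receptor that also binds neurotensin, did not pass by its brightest probe set, at -0.15 (limma adjusted p = 0.37), while its other 2 tested probe sets rose, the larger by 0.94.

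Atp1b2 encodes the beta-2 subunit of the sodium pump, also known as the adhesion molecule on glia. Probe set 1435148_at read 12.23, 12.50 and 12.34 on the old arrays, against 12.51, 12.63 and 12.52 on the young ones. The old arrays lay just below the young ones, with a change of -0.20 and a 95% confidence interval of -0.41 to 0.02 (limma adjusted p = 0.128). Probe set 1422009_at overlapped between the ages, with a change of -0.21 and an interval of -0.51 to 0.09 (limma adjusted p = 0.219). With eBayes using trend and robust options 1435148_at passed, at an adjusted p of 0.0491. Both intervals include 0. Of the other beta subunits Atp1b1, at -0.14, and Atp1b3, at 0.05, did not pass (limma adjusted p = 0.137 and 0.556). Fxyd6, a small regulator of the pump, averaged 2.80 ± 0.35 in old and 8.57 ± 0.17 in young cells and fell at least 23.8-fold (limma adjusted p = 5.32e-05). It passed the filter through the young arrays alone. It was the 1 gene of 3 tested in the sodium pump list that changed, where 40.6% of all genes passed.

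**Figure D2:**
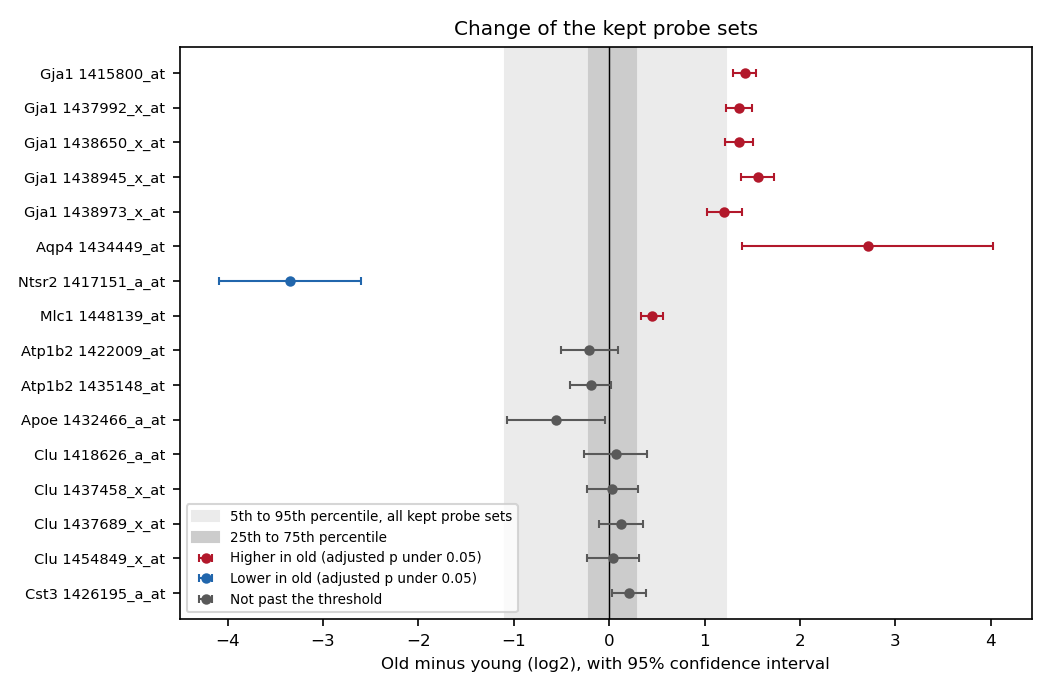
Change of the 16 tested probe sets, old minus young on the log2 scale (x axis), with 95% confidence intervals from limma, beside the 25th to 75th and the 5th to 95th percentiles of all tested probe sets in grey. The 5 Gja1 probe sets lie between 1.21 and 1.55, Aqp4 at 2.71 has the widest interval, Ntsr2 lies at -3.35, and the 4 Clu probe sets lie between 0.03 and 0.12.

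The genes of the secreted proteins did not pass. Apoe carries cholesterol from astrocytes to neurons. Its 1 probe set (1432466_a_at) read 4.05, 4.75 and 4.36 on the old arrays, against 5.17, 4.75 and 4.91 on the young ones. Both ages lay close to log2 4 and overlapped. The change was -0.56 with a 95% confidence interval of -1.07 to -0.04 (limma adjusted p = 0.0861), and it passed without old replicate 2, at -0.74 (adjusted p = 0.0417).

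Clu, or apolipoprotein J, is a chaperone found in lipoprotein particles. Its brightest probe set (1437458_x_at) read 11.18, 11.35 and 11.57 on the old arrays, against 11.33, 11.34 and 11.33 on the young ones. The old arrays spread to both sides of the young ones. The change was 0.03 with a 95% confidence interval of -0.23 to 0.30 (limma adjusted p = 0.82). The 4 probe sets had changes of 0.03 to 0.12 and adjusted p of at least 0.334, and old replicate 1 was the lowest of the 6 arrays for all 4.

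Cst3, or cystatin C, inhibits cysteine proteases outside the cell. Its 1 probe set (1426195_a_at) read 13.95, 14.12 and 14.16 on the old arrays, against 13.86, 13.82 and 13.91 on the young ones. The groups did not overlap, and the change was 0.21 with a 95% confidence interval of 0.03 to 0.39 (limma adjusted p = 0.0689). It passed without old replicate 1, at 0.28 (adjusted p = 0.0308), and with eBayes using trend and robust options (adjusted p = 0.00897). Over the 3 secreted genes the median change was 0.03, and over the 5 tested membrane genes it was 0.45. The membrane changes ran from -3.35 for Ntsr2 to 2.71 for Aqp4, and the membrane and secreted genes were not compared by a test.

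Of 11 tested genes that load, process or take up lipoproteins, 7 rose and 1 fell (median change 0.53, where 22.0% of all genes rose). The median does not move with genes under log2 4 taken at that level. Lpl, the lipase that frees fatty acids from lipoproteins, passed the filter through the old arrays alone and rose at least 116-fold (limma adjusted p = 2.79e-07). Rxra, the partner of the sterol-sensing nuclear receptors, rose by 0.82 (limma adjusted p = 0.00156). Vldlr, a receptor that binds Apoe, fell by 1.10 (limma adjusted p = 0.00162), and all 6 of its tested probe sets fell. Abca1, the transporter that loads cholesterol onto Apoe, was picked after its values were seen and averaged 10.24 ± 0.38 in old and 8.52 ± 0.14 in young cells, a change of 1.72 (limma adjusted p = 0.00256). The receptors Lrp1, at -0.11, and Lrp8, at -0.01, did not pass (limma adjusted p = 0.809 and 0.964).

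Among the cystatins and the cysteine proteases they inhibit, 8 genes were tested, of which 2 rose and 3 fell (median change 0.00). Over all genes 22.0% rose and 18.5% fell. One that rose, the legumain gene Lgmn, did not pass without old replicate 1, 2 or 3 (adjusted p between 0.0534 and 0.0886). Ctsz, cathepsin Z, fell at least 71.5-fold (limma adjusted p = 9.80e-05), and its 3 tested probe sets fell. Ctsc, cathepsin C, fell at least 3.89-fold (limma adjusted p = 0.000241), while Ctso, cathepsin O, rose by 1.23 (limma adjusted p = 0.000444). Ctsz and Ctsc passed the filter through the young arrays alone. Ctsb, cathepsin B, did not pass, at -0.07 (limma adjusted p = 0.337).

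Of 35 other astrocyte genes tested, 13 rose and 7 fell, where 22.0% of all genes rose and 18.5% fell (median change 0.07). Ndrg2, a cytoplasmic astrocyte protein, fell by 2.38 (limma adjusted p = 0.000321). Gpr37l1 rose as given above, and Cbs, which makes cystathionine from homocysteine, rose by 1.85 (limma adjusted p = 0.000636). Picked after their values were seen, Aldh1l1, the folate enzyme used as a pan-astrocyte marker, rose by 0.86 (limma adjusted p = 0.0101), while the filament gene Gfap did not pass, at 0.31 (limma adjusted p = 0.446). Others of this list, also picked later, went both ways. S100b rose by 2.93 (limma adjusted p = 0.000686), while Fgfr3 fell by 0.59 (limma adjusted p = 0.000836). Sox9 fell by 0.35 (limma adjusted p = 0.00437), with 1 of its 2 tested probe sets passing.

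**Figure D3:**
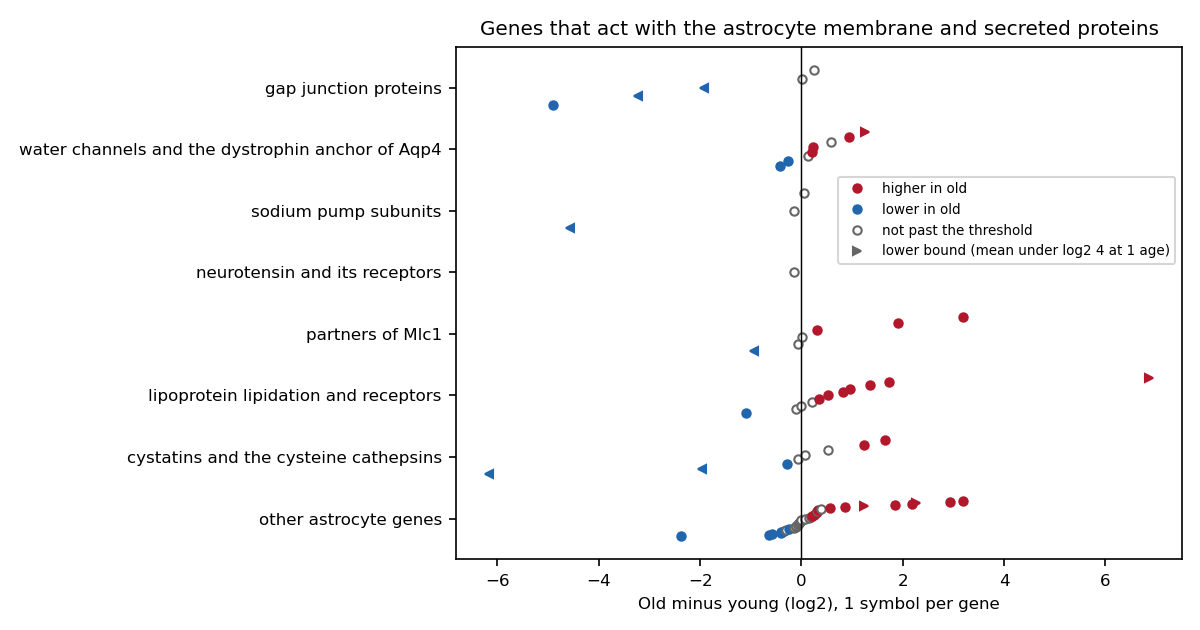
Change of each tested gene, old minus young on the log2 scale (x axis), in the 8 lists of genes that act with the 9 proteins or share their cell type (y axis), 1 symbol per gene, filled for genes past the threshold. Triangles stand for genes with a mean under log2 4 at 1 age and sit at the lower bound of their change. The lipoprotein list has 7 filled symbols to the right of 0 and 1 to the left, and the 3 connexins past the threshold lie to the left.

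By likeness over the 6 arrays, measured as the root mean square difference between mean-centred log2 levels among 9720 other named genes, the genes closest to Gja1 were Rps6ka5 (0.026 log2 units), Fgf1 (0.065) and Cavin2 (0.072). Closest to Aqp4 were Cep112 (0.28), the zinc transporter gene Slc39a12 (0.29) and Spink10 (0.29). Slc39a12 is itself on the list of astrocyte genes and rose at least 4.82-fold (limma adjusted p = 0.00379). Closest to Ntsr2 were Mapk12 (0.21), Chac1 (0.22) and Fst (0.23), and closest to Mlc1 were Scfd1 (0.0099), Cachd1 (0.027) and Prkd1 (0.028). With 3 arrays at each age this likeness mostly reflects the difference between the ages.

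Most stem cell markers were measured at both ages. Sox2 averaged 13.30 ± 0.043 in old and 13.44 ± 0.076 in young cells, and did not pass. Of 14 stem cell and radial glia genes 13 were tested, with 1 higher and 6 lower in old cells. Over all genes 22.0% were higher and 18.5% lower. Hes5, a target of Notch signalling, passed the filter through the young arrays alone, with 2.14 to 2.73 in old and 7.52 to 7.91 in young cells, and fell at least 13.7-fold (limma adjusted p = 5.56e-05). Prom1 was under log2 4 on every array, at 2.14 in old cells and 2.58 to 3.27 in young cells. The summed level of this list was 16.57 on each old array and 16.71 to 16.77 on the young arrays (log2 of the sum of linear levels). Its brightest genes were Vim, at 14.91 in old and 14.88 in young cells, and Fabp7, at 14.56 in old and 14.70 in young cells. Fabp7 is also on the list of other astrocyte genes. Microglia, which express Apoe and Cst3 strongly, had 11 of 13 markers at 2.14 on every array, among them Cx3cr1, Csf1r, Aif1 and C1qa, and a summed level of 6.21 to 6.93 in old and 5.98 to 6.13 in young cells. Of these only Cd68 passed the filter, at 1.40 (limma adjusted p = 0.0697). All 6 choroid plexus markers, a source of Clu and Cst3, read 2.14 on every array. Endothelial markers had 1 of 9 tested, Flt1, which fell by 1.22 (limma adjusted p = 0.0129), and a summed level of 6.02 to 6.44 in old and 6.78 to 6.97 in young cells, with Pecam1, Cldn5 and Cdh5 at 2.14 throughout.

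Lineage markers moved along with the age contrast, where 22.0% of all genes rose and 18.5% fell. Of those named here, Foxj1 passed the filter through the old arrays alone, and Nkx2-2 and Ugt8a through the young arrays alone. Of 4 tested ependymal markers 3 rose and 1 fell, with a summed level of 8.98 to 9.19 in old and 8.52 to 8.77 in young cells, and Foxj1, the master factor of motile cilia, rose at least 3.50-fold (limma adjusted p = 0.00312). The one that fell, Ccdc153, did not pass without old replicate 1 or 2 or young replicate 3 (adjusted p between 0.064 and 0.0664). The other 3 of 7 ependymal markers lay under the filter, with Tmem212 and Tekt4 at 2.14 on every array. Of 6 tested genes of oligodendrocyte progenitors 4 fell (median change -1.69), and Nkx2-2, a transcription factor of these cells, fell at least 91.2-fold (limma adjusted p = 2.79e-07). Their summed level was 14.28 to 14.36 in old and 14.51 to 14.60 in young cells, most of it from Olig1 and Olig2, which did not pass (limma adjusted p = 0.57 and 0.281). Of 7 tested genes of neuroblasts and neurons 5 fell and 1 rose (median change -0.87, or -0.85 with genes under log2 4 taken at their bound), and the neuronal tubulin Tubb3 fell at least 43.3-fold (limma adjusted p = 4.64e-05). Their summed level was 13.97 to 14.04 in old and 14.09 to 14.11 in young cells, most of it from Map2. By its brightest probe set Map2 did not pass, at 0.12 (limma adjusted p = 0.0857). Of its 3 tested probe sets 1 rose, with changes from 0.12 to 0.46 over the 3. Of 3 tested mature oligodendrocyte genes 2 fell (median change -2.75), and Ugt8a, which makes myelin galactolipids, fell at least 49.6-fold (limma adjusted p = 1.47e-05). Their summed level was 13.19 to 13.36 in old and 13.41 to 13.54 in young cells, most of it from Cnp, which did not pass, at -0.09 (limma adjusted p = 0.375), with Mbp, Mag and Mog at 2.14 throughout. Pericyte and fibroblast markers had a summed level of 7.20 to 7.45 in old and 8.68 to 8.86 in young cells, with Pdgfrb and Dcn at 2.14. Both tested genes, Cspg4 and Acta2, were lower, but Acta2 passed without old replicate 3 and not without any of the other arrays (adjusted p between 0.059 and 0.124). Cspg4 is also on the oligodendrocyte progenitor list and is counted there among the genes that fell. It read 5.96 to 6.29 in old and 8.07 to 8.22 in young cells, a large part of the summed level of this list. The part of these cell types in the changes of the 9 genes was not tested.

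**Figure D4:**
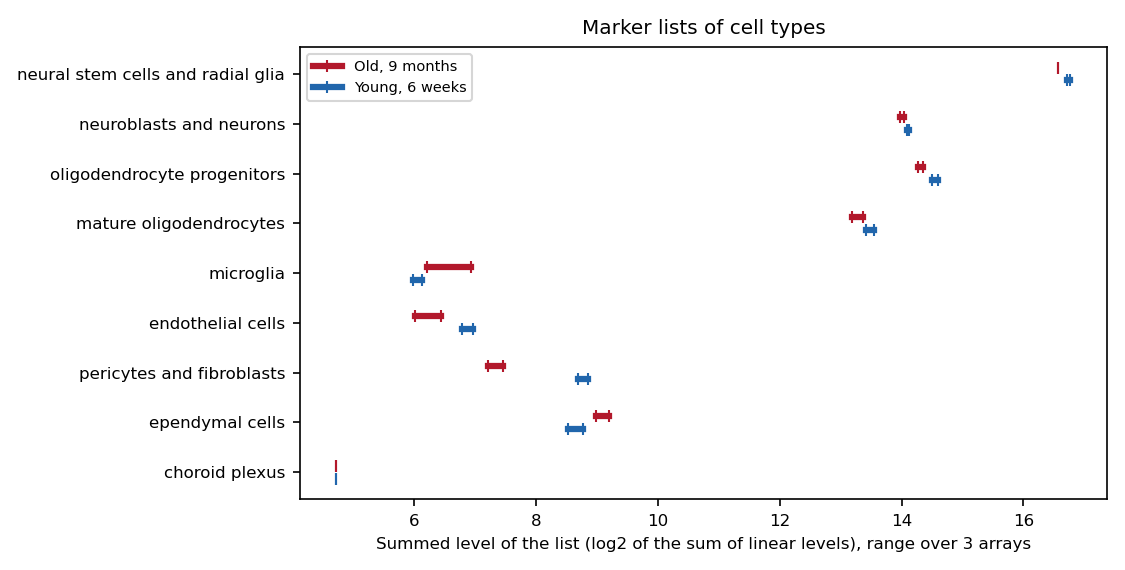
Summed level of each cell type's marker list (x axis, log2 of the sum of linear levels, 1 probe set per gene), as the range over the 3 old arrays in red above the range over the 3 young arrays in blue. Choroid plexus, microglia and endothelial lists lie under 7 at both ages, and the stem cell list lies above 16.

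On all arrays 38.3 to 40.4% of probe sets lay at the lowest value. Old arrays correlated with each other at 0.995 and young arrays at 0.979 to 0.993 across tested probe sets. Probe sets are not independent of each other. The 18 hybridisation control probe sets, which read RNA added in fixed amount, averaged 12.28 ± 0.098 on old and 13.24 ± 0.28 on young arrays (SD, n = 3 each), lower on every old array (two-sided exact permutation p = 0.1, which is as small as this test can give with 3 arrays a group). RNA quality was read from the actin control probe sets, whose 3′ level exceeded the 5′ level by 0.69 ± 0.036 on old and 0.62 ± 0.043 on young arrays (log2, SD, n = 3 each), by more on every old array (two-sided exact permutation p = 0.1). The part of either measure in the changes of the 9 genes was not tested. Young replicate 2 stood apart from the other young arrays on the second principal component (9.93% of the variance), while the ages were parted on the first (83.2%). Without young replicate 2 the number of probe sets of the 9 genes that rose was 7 and that fell was 1, as with it.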

How the data were processed

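Total RNA of 6 samples was extracted with the NucleoSpin XS kit and biotin-labelled with a NuGEN Encore module, per the labels' protocols, and hybridised 1 sample to an array. The values the authors deposited are log2 levels of each probe set from GCRMA, per the submitters' processing notes, which corrects background by probe sequence and normalizes between arrays. The GCRMA version and chip definition used were not stated, and the scale was inferred to be log2 from the range of the values. Names came from the platform's annotation, with 34945 of 1 symbol, 932 of several and 9160 unnamed here, and 99.4% of identifiers matched RefSeq genes of GRCm38.p6. The 64 control probe sets were left out of the tests.

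Probe sets above log2 4 on at least 3 arrays (19858) were tested with limma 3.58.1 in R 4.3.3, using lmFit and eBayes in two-sided tests, and p-values were adjusted by Benjamini-Hochberg over all of them. Each variance had 4 residual degrees of freedom and a prior worth 1.47 more. A gene stands for its brightest tested probe set. Where all arrays of an age were under log2 4, the fold is a lower bound against that level, and where only their mean was, against the highest of them. The 9 genes and all lists were chosen with earlier results of these data known. The text names all 9 genes, up to 3 changed genes of each list of related genes with the smallest p, direct partners, the 3 genes most like a member, and markers, and says where a gene was picked later. Alternatives were other filters, normalizations, variance settings and array weights, the replicate number as a block, leaving out each array and averaging the tested probe sets of a gene. The number of arrays limits the precision. Plots were made with matplotlib 3.10.9 (Python 3.11.15).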

Additional observations from a re-analysis of the deposited data

How the results depend on the processing

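The 13 alternatives run on single probe sets reversed no change that had passed the test. The Apoe probe set was left out by the filter at log2 6. Of 16 tested probe sets of the 9 genes, all 5 of Gja1, Ntsr2 and Mlc1 kept their call in every alternative, with log2 changes of 1.15 to 1.62, -3.60 to -3.22 and 0.43 to 0.47. Of the 9 genes, 3 rose in the main fit and 2 without a filter, where Aqp4 lost its call. With eBayes using trend and robust options, or without old replicate 1, 4 rose, with Cst3 added. The number of the 9 genes that fell was 2 with eBayes using trend and robust options, where Atp1b2 also passed, and 1 to 2 on leaving out 1 array, with Apoe added without old replicate 2. The same holds for the number of their probe sets that fell, 2 and 1 to 2. Over all probe sets, 2177 to 3301 fell on leaving out 1 array, against 3273, the lowest without old replicate 2. On leaving out 1 array with 2 left at an age, the spread is pooled over both ages. Same-numbered old and young replicates did not deviate together (r = -0.16, -0.11 and 0.16 over tested probe sets, and not every array was closest to its own number). This gave no sign that the numbers pair the samples, but with 3 arrays at each age it cannot exclude that they do. With the replicate block 3144 probe sets rose and 2456 fell, the 9 genes had 7 probe sets (3 genes) higher and 1 (1 gene) lower, related genes had 21 higher and 17 lower, and markers had 5 higher and 18 lower. Near log2 4, where Apoe, Aqp4 in young cells and Ntsr2 in old cells lie, the sizes of changes are uncertain. Compression at the high level of Mlc1 was not tested. No scanner files or detection calls were used here. Without a filter Aldh1l1, Flt1, Utrn, Dmd, Hepacam, Ccdc153, Sntb1, Lgmn and Acta2 also lost their calls, with adjusted p of 0.0506, 0.064, 0.0691, 0.0806, 0.0814, 0.0875, 0.0901, 0.113 and 0.16.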
